A study of Caenorhabditis elegans with 6 samples.

Results

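The dopamine neurons of the nematode Caenorhabditis elegans were profiled by RNA sequencing in 3 libraries, dopamine 1, dopamine 2 and dopamine 3. They are 3 of the 6 libraries in the series, and were chosen by their label for cell type. All 3 came from worms of strain FQ939, given as wild type in the labels and sampled as embryos and larvae, and the labels name no mutant allele, transgene or treatment. RNA was purified with a kit for very small samples and copied into libraries with a kit that amplifies 1-2 ng of total RNA. The sources used here do not give how the cells were marked and collected, how many were pooled or whether the libraries came from separate cultures. The profile is described within these 3 libraries, with no test, and the spread between them may be technical.

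The dopamine neurons of the hermaphrodite are ciliated mechanosensory cells that end in the cuticle of the head and body and detect the texture of a bacterial lawn. They make dopamine from tyrosine by a hydroxylase and a decarboxylase, load it into vesicles with a monoamine transporter and recover it from outside the cell with a plasma membrane transporter. The genes for these proteins are switched on together by a small set of transcription factors that include an ETS factor and a Distal-less homeodomain factor.

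Levels are given as FPKM, fragments scaled by gene length and by library, as the authors deposited it. Reads recovered from the deposited normalized counts numbered 20418663 in dopamine 1, 27208221 in dopamine 2 and 27823600 in dopamine 3. Nuclear ribosomal RNA took 40.9% of the reads of dopamine 1, 10.95% of those of dopamine 2 and 13.66% of those of dopamine 3, and nuclear protein-coding genes held 10627046, 21380217 and 22236771 reads in the same order. For a gene of median length, 1 FPKM stood for 31.2 reads in dopamine 1, 59.6 in dopamine 2 and 53.8 in dopamine 3. A gene counted as detected when it had at least 1 FPKM in all 3 libraries, and 8621 of the 19623 nuclear protein-coding genes (43.9%) did so. Another 1404 genes reached 1 FPKM in 2 libraries, 2142 in 1 library and 7456 in none.

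The defining genes of the labelled cell type were present. All 5 dopamine neuron markers were detected and ranked between 113 and 667 of the 19623 genes. The gene dat-1, which encodes the dopamine transporter of the plasma membrane, had 287 FPKM in dopamine 1, 233 in dopamine 2 and 486 in dopamine 3, and ranked 113. These levels rested on 13080, 20294 and 38257 reads. The gene cat-1, for the vesicular monoamine transporter, had 146, 95.1 and 208 FPKM in the same order. The gene cat-2, for tyrosine hydroxylase, the enzyme specific to dopamine synthesis in the worm, was lowest of the 5 at 64.5, 63.99 and 127 FPKM. All 5 markers were highest in dopamine 3. After each library was rescaled to the same protein-coding sum, 4 of them still were, and their summed share of that sum was 0.307% in dopamine 1, 0.223% in dopamine 2 and 0.373% in dopamine 3. In bulk RNA, fewer cells of a type and less RNA per cell cannot be told apart.

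The gene next to dat-1 on its 5′ side ranked 10 among all protein-coding genes. This gene, saeg-2, lies on chromosome III from 9240363 to 9242514 of WBcel235, on the same strand as dat-1 and 460 bases before its start at 9242975. It had 1096, 886 and 1979 FPKM in dopamine 1, 2 and 3, and its ratio to dat-1 was 3.82, 3.80 and 4.07. The short non-coding gene T23G5.11, annotated on the opposite strand between saeg-2 and dat-1, had 158, 70.5 and 272 FPKM. T23G5.9 and T23G5.10, annotated on that strand within saeg-2, had 132, 88.5 and 378 FPKM and 161, 103.94 and 356 FPKM. On the 3′ side of dat-1 the next gene, T02C1.1, had 2.11, 0.69 and 1.42 FPKM. The high values thus covered the stretch before dat-1 on both annotated strands, but the sources used here do not say whether the counting used strand. This neighbourhood was looked at after its values were seen. The transgenes of strain FQ939 are not described in the sources used here, and the part of any transgene-derived reads in the saeg-2 level, rank and ratio was not tested.

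The enzymes and transporters of dopamine synthesis and packaging were detected in full, 8 of 8, beside 43.9% of all protein-coding genes. The most abundant enzyme gene, cat-4, encodes the GTP cyclohydrolase that starts synthesis of the tetrahydrobiopterin cofactor, and had 274, 139 and 207 FPKM in dopamine 1, 2 and 3. The gene qdpr-1, for the reductase that recycles this cofactor, had 151, 136 and 212 FPKM. The decarboxylase bas-1, which makes dopamine from L-DOPA and also serotonin from its precursor, had 76.0, 55.7 and 95.1 FPKM. The other cofactor enzymes were lower, with pcbd-1 at 17.8, 21.1 and 35.1 FPKM and ptps-1 at 8.10, 6.01 and 9.84 FPKM. In every library both transporters and the first cofactor enzyme had more FPKM than either of the enzymes that act on tyrosine and L-DOPA.

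**Figure D1:**
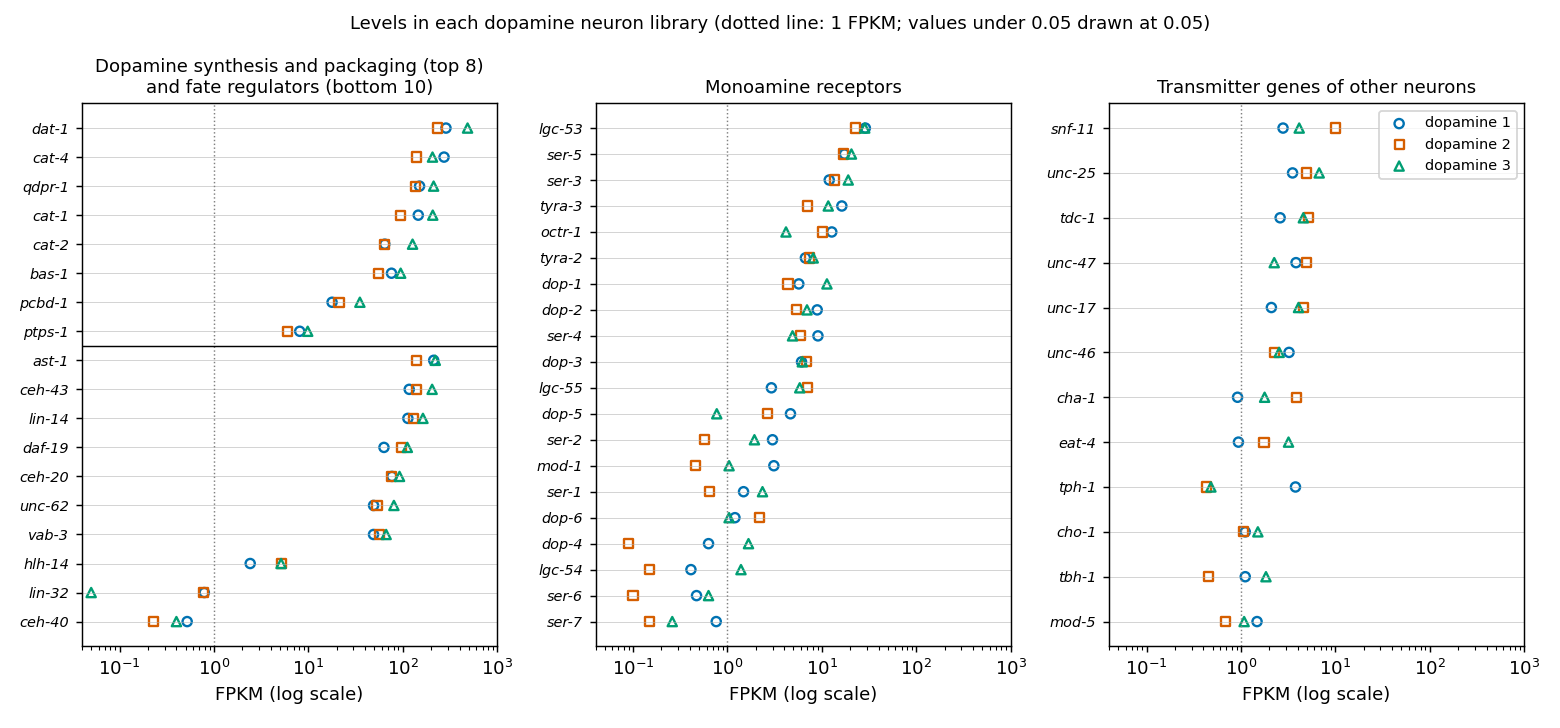
Each point is the FPKM (log axis) of a gene in dopamine 1, dopamine 2 or dopamine 3, with dopamine synthesis and fate genes in the left panel, monoamine receptors in the middle panel and transmitter genes of other neurons in the right panel. Most genes of the left panel lie between 50 and 500 FPKM, while no receptor exceeds 29 FPKM and no gene of the right panel exceeds 11 FPKM.

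Of the 10 transcription factors listed as regulators of dopamine neuron fate, 8 (80%) were detected, beside 43.9% of all protein-coding genes. The ETS factor ast-1 had 213, 141 and 221 FPKM in dopamine 1, 2 and 3, and the Distal-less homolog ceh-43 had 117, 140 and 205 FPKM. Their homeodomain partner ceh-20, of the Pbx class, had 76.8, 76.3 and 92.4 FPKM, and unc-62, of the Meis class, had 49.1, 53.4 and 80.6 FPKM. The Pax6 homolog vab-3 had 49.0, 57.0 and 66.7 FPKM, and the RFX factor daf-19, which switches on cilium genes, had 63.3, 96.5 and 112 FPKM. The early proneural factors were low. The gene hlh-14 was detected, at 2.42, 5.16 and 5.14 FPKM, while lin-32, an atonal homolog, was not, at 0.79, 0.78 and 0 FPKM. The other regulator that was not detected was ceh-40, at 0.52, 0.23 and 0.40 FPKM. The heterochronic factor lin-14, which is active in early larval stages, had 113, 130 and 164 FPKM.

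Families of other transcription factors were detected in shares below, near and above the 43.9% of all protein-coding genes. The nuclear hormone receptor family had 90 detected members of 269 (33.5%), led by nhr-3 at 178, 137 and 188 FPKM. The ceh homeobox family had 34 detected members of 63 (54%). After ceh-43 and ceh-20 its highest member was ceh-48 at 57.2, 45.9 and 60.2 FPKM. The 25 hlh genes gave 11 detected members (44%), led by hlh-30, a TFEB homolog, at 84.4, 97.3 and 96.6 FPKM. The 6 Hox genes, which pattern the body axis, were all at or below 10.6 FPKM, and 3 (50%) were detected. The most abundant, ceh-13, had 4.54, 10.6 and 5.53 FPKM. All 6 Hox genes were highest in dopamine 2, and with each library rescaled to the same protein-coding sum 5 were. Among all 18575 protein-coding genes with any reads, 27.7% were highest in that library, and among the detected ones 35.3% were.

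Receptors for monoamines had a median of the mean of 5.84 FPKM, beside 117 FPKM for the dopamine synthesis and packaging list. The 2 lists overlapped, since the cofactor enzyme genes pcbd-1 and ptps-1 had means of 24.7 and 7.98 FPKM, below the highest receptor gene at 26.7. Of 20 listed receptors, 12 (60%) were detected, beside 43.9% of all protein-coding genes, and 4 reached a mean of 10 FPKM. The dopamine-gated chloride channel gene lgc-53 was highest at 28.9, 22.8 and 28.5 FPKM in dopamine 1, 2 and 3. The D2-like autoreceptor gene dop-2 had 8.93, 5.38 and 6.96 FPKM, the D2-like dop-3 had 6.09, 6.89 and 6.21 FPKM, and the D1-like dop-1 had 5.70, 4.38 and 11.3 FPKM. These 3 dopamine receptor genes overlapped across the libraries, so their order of level was not fixed. Receptors for serotonin and octopamine spanned a wider range. The gene ser-5 had 17.4, 17.1 and 20.6 FPKM and ser-3 had 11.97, 13.59 and 19.03 FPKM, above these 3 dopamine receptors in each library. Lower values were found for mod-1, at 3.10, 0.46 and 1.04 FPKM, and ser-6, at 0.47, 0.10 and 0.63 FPKM. The D1-like dop-4 had 0.63, 0.09 and 1.67 FPKM and was not detected by the rule of 1 FPKM in all 3.

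Genes that mark neurons using other transmitters were lower than every dopamine neuron marker. Of 12 such genes 7 (58.3%) were detected, beside 43.9% of all protein-coding genes. The median of the mean FPKM was 2.43 over the 12 genes, beside 1.29 over all protein-coding genes. The highest value in any library was 10.1 FPKM, for the GABA transporter gene snf-11 in dopamine 2. This gene had 2.79 FPKM in dopamine 1 and 4.14 in dopamine 3. The glutamate decarboxylase gene unc-25 had 3.52, 4.94 and 6.74 FPKM in dopamine 1, 2 and 3. The vesicular acetylcholine transporter gene unc-17 had 2.1, 4.56 and 4.07 FPKM, and the vesicular glutamate transporter gene eat-4 had 0.94, 1.75 and 3.19 FPKM. The tryptophan hydroxylase gene tph-1, specific to serotonin synthesis, had 3.78 FPKM in dopamine 1, from 151 reads, against 0.43 FPKM in dopamine 2 and 0.48 in dopamine 3, from 33 reads each. Summed over the 12 genes the level was 27.4, 40.2 and 34.2 FPKM, less than the lowest single value of cat-2.

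Protein-coding levels followed a long tail. The single most abundant gene held 1.44% ± 0.13 of the protein-coding FPKM sum, the 10 most abundant genes held 6.92% ± 0.51, the 100 most abundant held 24.8% ± 1.31 and the 1000 most abundant held 61.4% ± 1.37 (SD, n = 3 libraries each). The mean was 10 FPKM or more for 4707 genes (24% of 19623), 100 FPKM or more for 540 and 1000 FPKM or more for 19. The median of the mean FPKM was 11.5 over detected genes and 1.29 over all protein-coding genes. Gene lengths implied by the 2 deposited tables were within 10% of the annotated exon length for 75% of 5584 genes checked, and for 68 of the 100 most abundant genes, so close ranks are approximate.

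**Figure D2:**
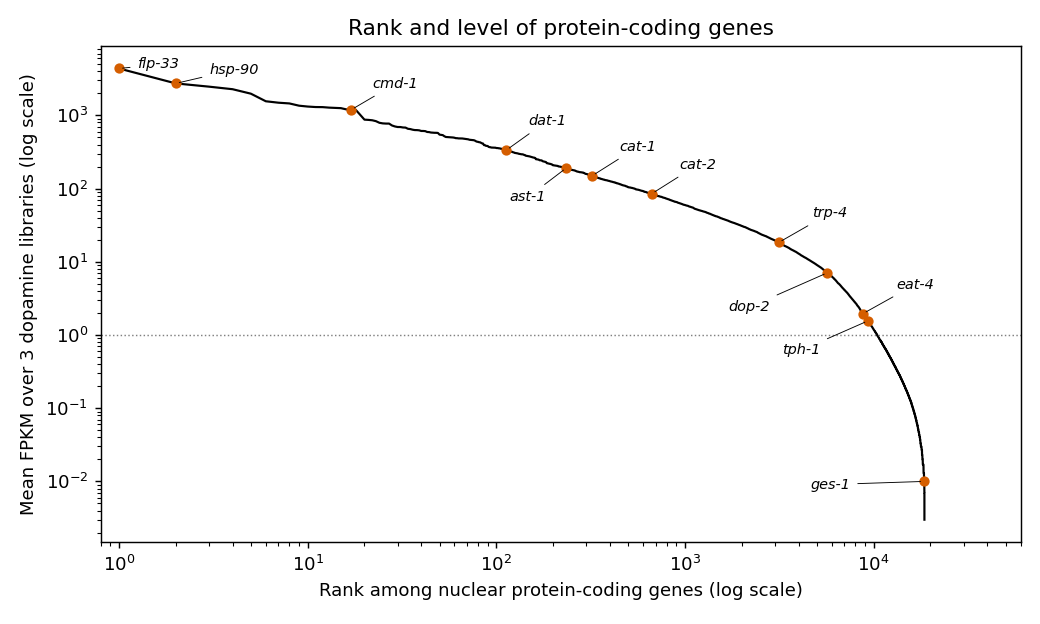
The line gives the mean FPKM over the 3 dopamine libraries (log axis) of each nuclear protein-coding gene with any reads, against its rank (log axis), with named genes as points and a dotted line at 1 FPKM. The dopamine markers dat-1, ast-1, cat-1 and cat-2 lie between ranks 113 and 667, the receptor gene dop-2 lies at rank 5691, and tph-1 lies at rank 9339.

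The first place in all 3 libraries was held by flp-33, which encodes FMRFamide-like neuropeptides, on chromosome I from 12624234 to 12625238 of WBcel235. It had 3519, 4352 and 5240 FPKM in dopamine 1, 2 and 3. The cytosolic chaperone hsp-90 followed with 2680, 2749 and 2770 FPKM, a CV of 1.72%. Behind these came genes for profilin (pfn-1, 1880, 2075 and 3450 FPKM), the HMG-box chromatin protein hmg-1.1 (1979, 2382 and 2472 FPKM) and the 14-3-3 protein ftt-2 (1896, 1335 and 2706 FPKM). The bZIP transcription factor gene zip-2 ranked 6 and was highest in dopamine 2, at 2090 FPKM, beside 1183 in dopamine 1 and 1405 in dopamine 3. For 15 of the 20 highest non-ribosomal genes the gap in mean FPKM to the next one was smaller than the gene's own SD. The order of neighbours among them was thus not resolved. The last of the 20, eat-6, was not compared with a next gene.

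The remaining places in that list of 20 went to genes of several kinds. The actin gene act-4 had 1304, 1463 and 1703 FPKM in dopamine 1, 2 and 3, and the beta-tubulin gene tbb-2 had 1059, 1200 and 1508 FPKM. Calmodulin, cmd-1, had 1087, 937 and 1553 FPKM, and eat-6, the alpha subunit of the sodium-potassium ATPase, had 839, 748 and 1016 FPKM. The recycling endosome GTPase rab-11.1 had 745, 826 and 1053 FPKM. Other named members were icd-1, of the nascent polypeptide-associated complex, the constitutive Hsp70 gene hsp-1, the elongation factor eef-1A.1 and the aldolase aldo-1, with means between 1016 and 1357 FPKM. Genes known only by a sequence name took 4 of the 20 places: Y97E10C.1, R02F2.1, Y17G7B.20 and K09F6.10, with means between 1276 and 1456 FPKM. Among the top 100, K09F6.10 was joined by its neighbours K09F6.9 and K09F6.13 on chromosome II, and Y17G7B.20 by Y17G7B.21, which lies 114 bases away on the same strand.

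Ribosomal protein genes made up 21 of the top 100. Over the 81 rpl, rps and rla genes 80 (98.8%) were detected, beside 43.9% of all protein-coding genes. Together the 81 held 7.21% of the protein-coding FPKM sum. The highest, rpl-18, had 1065, 1354 and 1379 FPKM in dopamine 1, 2 and 3. Several other families of cell maintenance were also complete: all 25 eif translation factors, all 8 cct chaperonin subunits and all 14 proteasome core subunits of the pas and pbs families were detected. Of the 20 vha genes for the vacuolar ATPase, which acidifies vesicles and powers their loading, 18 were detected, led by vha-10 at 390, 426 and 634 FPKM.

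Genes of neuronal machinery were detected in full or nearly so, beside 43.9% of all protein-coding genes. All 25 pan-neuronal genes were above 10 FPKM on average and 14 were above 100. Synaptobrevin, snb-1, had 546, 644 and 759 FPKM in dopamine 1, 2 and 3, and the synaptic vesicle GTPase rab-3 had 430, 346 and 609 FPKM. The SNAP-25 homolog ric-4 had 379, 259 and 507 FPKM, and the Munc18 homolog unc-18 had 321, 223 and 422 FPKM. Goα, the goa-1 product through which D2-like receptors signal, had 589, 478 and 683 FPKM. The summed share of the list was 2.23% in dopamine 1, 1.68% in dopamine 2 and 2.19% in dopamine 3, so dopamine 2 was lowest for this list as for the dopamine markers.

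Of 46 genes for cilia and intraflagellar transport, 44 (95.7%) were detected, beside 43.9% of all protein-coding genes. Their median of the mean was 15.8 FPKM, beside 11.5 over all detected protein-coding genes. The highest were ift-43, a transport subunit, at 76.6, 127 and 129 FPKM in dopamine 1, 2 and 3, and the ciliary tubulin tbb-4 at 74.1, 86.6 and 109 FPKM. The kinesin gene osm-3 had 7.39, 8.92 and 5.12 FPKM and the IFT-B gene osm-6 had 9.82, 15.7 and 18.8 FPKM. The 2 members below the detection rule were daf-10 at 0.91, 1.16 and 1.98 FPKM and tba-5 at 1.21, 1.89 and 0.42 FPKM. Of the 46 genes 35 (76.1%) were highest in dopamine 3, and 30 after rescaling to the same protein-coding sum. Among the 8621 detected protein-coding genes 4099 (47.5%) were highest in that library, and 2557 after rescaling. The 97% of klp-11 exon length that overlaps another gene on the same strand makes its value uncertain.

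Neuropeptide genes and their processing enzymes were prominent. All 11 peptide processing genes were detected, among them the 7B2 chaperone sbt-1 at 514, 512 and 471 FPKM in dopamine 1, 2 and 3, the carboxypeptidase egl-21 at 362, 290 and 360 FPKM, and the proprotein convertase egl-3 at 395, 241 and 287 FPKM. Of the 31 flp genes 28 (90.3%) were detected, beside 43.9% of all protein-coding genes, and 6 had a mean of at least 100 FPKM. After flp-33 these were flp-25 at 319, 255 and 512 FPKM, flp-9 at 318, 233 and 266 FPKM, flp-5 at 256, 209 and 266 FPKM, flp-34 at 229, 156 and 124 FPKM, and flp-4 at 145, 162 and 176 FPKM. The next gene, flp-1, had 36.9, 76.2 and 57.3 FPKM.

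The 6 abundant flp genes and the other 25 were distributed differently over the libraries. None of the 6 was highest in dopamine 2, while 19 of the other 25 were, and 17 were after rescaling. Among the 8621 detected protein-coding genes 3044 (35.3%) were highest in that library, and 3156 after rescaling. Over all protein-coding genes with any reads the share was 27.7%. The summed level of the 6 was 4785, 5365 and 6584 FPKM in dopamine 1, 2 and 3, and that of the other 25 was 297, 553 and 261 FPKM. For example, flp-21 had 18.2, 41.1 and 5.43 FPKM and flp-11 had 5.59, 39.8 and 2.1 FPKM. The division at 100 FPKM was chosen after the values were seen. No flp gene was at 0 reads in all 3 libraries, and flp-23 was lowest at 0.33, 0 and 0.09 FPKM.

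**Figure D3:**
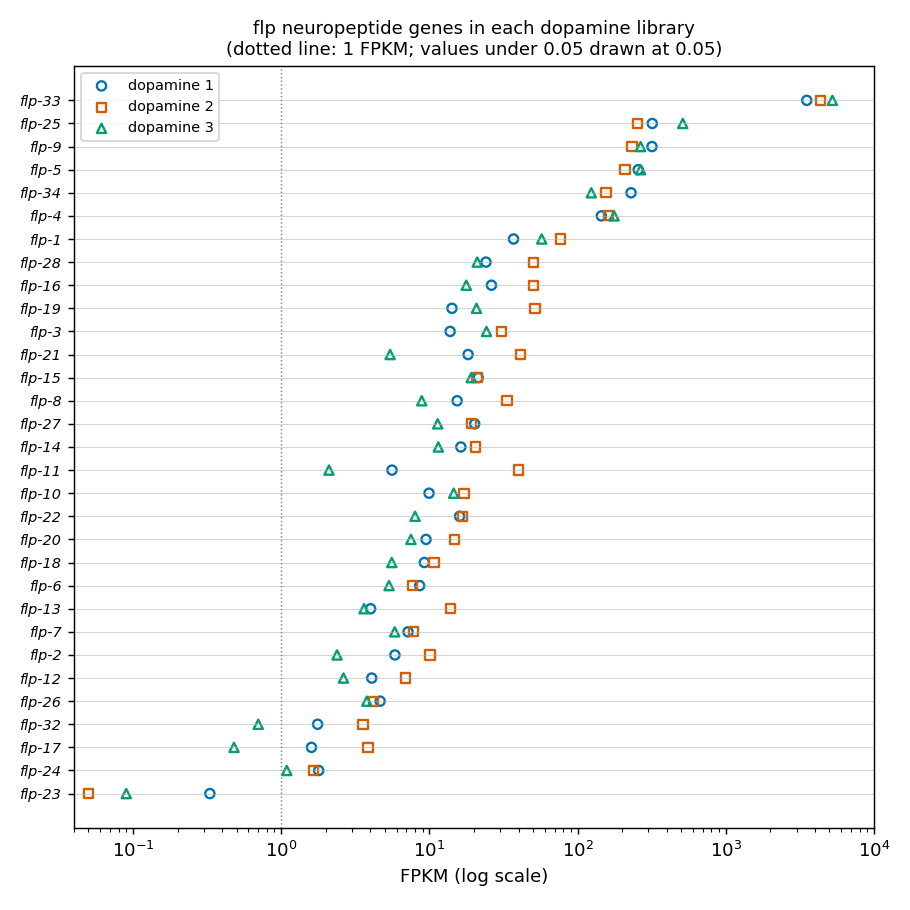
Each point is the FPKM (log axis) of an flp gene in dopamine 1, dopamine 2 or dopamine 3, in order of the mean. The gene flp-33 lies at 3519 FPKM or more in every library, 5 further genes lie between 124 and 512 FPKM, and most of the lower genes have their highest point in dopamine 2.

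The nlp family of other neuropeptides was broader and lower, with 39 of 71 genes detected and none at a mean of 100 FPKM. Its highest members were nlp-53 at 71.2, 61.3 and 90.4 FPKM and nlp-18 at 68.8, 74.9 and 71.3 FPKM. Insulin-like genes were low, with 9 of 38 detected, none at a mean of 10 FPKM, and 5 (ins-7, ins-8, ins-11, ins-20 and ins-23) at 0 reads in all 3 libraries. Over all protein-coding genes 1048 (5.34%) were at 0 reads in all 3. From counting alone, a count of 0 allows up to 3 reads of the 20418663 in dopamine 1, of the 27208221 in dopamine 2 and of the 27823600 in dopamine 3. Of the receptors for neuropeptides, 16 of 43 npr genes (37.2%), 10 of 20 frpr genes (50%) and 5 of 16 dmsr genes (31.2%) were detected, shares on both sides of the 43.9% over all protein-coding genes. The highest were npr-23 at 25.02, 28.02 and 43.1 FPKM and dmsr-3 at 26.21, 17.56 and 25.96 FPKM.

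Channel and junction genes were detected in shares above and below the 43.9% of all protein-coding genes. Of 14 candidate mechanosensory channel genes 10 were detected. The highest were the DEG/ENaC channel genes del-3 at 38.25, 41.8 and 103.82 FPKM and asic-1 at 43.47, 26.15 and 63.07 FPKM in dopamine 1, 2 and 3. The potassium channel gene twk-2 followed at 30.76, 19.96 and 41.11 FPKM and the TRPN channel gene trp-4 at 15.24, 10.66 and 29.22 FPKM. The TRPV gene osm-9 had 18.3, 15.9 and 18.7 FPKM, the Piezo homolog pezo-1 had 12.56, 15.84 and 11.95 FPKM and tmc-1 had 3.67, 6.37 and 8.75 FPKM. The touch channel subunit gene mec-4 had 3.76, 10.4 and 5.23 FPKM, while mec-10 had 0.51, 1.00 and 1.31 FPKM. Of 25 innexin genes, which form gap junctions, 13 were detected. The 3 most abundant were unc-9 at 137, 117 and 203 FPKM, unc-7 at 83.2, 70.2 and 127 FPKM and inx-1 at 73.0, 69.9 and 99.0 FPKM, and the next, inx-3, had 9.74, 26.97 and 16.96 FPKM. Two-pore potassium channels of the twk family gave 17 detected of 44, ligand-gated channels of the lgc family 20 of 56 and acetylcholine receptor subunits of the acr family 6 of 21. In the last 2 families the leading members were lgc-47 at 67.5, 92.0 and 99.5 FPKM and acr-12 at 33.1, 44.3 and 68.6 FPKM.

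Detection varied widely between gene families, beside a share of 43.9% over all protein-coding genes. Of 173 families defined by a shared symbol prefix with at least 10 members, 16 had every member detected and 13 had none. Complete families included the vps and sec trafficking genes, the npp nucleoporins and the cox subunits of cytochrome oxidase. Families with no detected member included 8 chemoreceptor families, among them sra, sre and srg. Of 156 col cuticle collagen genes 9 were detected, of 31 msp sperm protein genes 1, of 240 clec C-type lectin genes 16, and of the 6 vitellogenin genes none, with the highest, vit-2, at 0.72, 1.52 and 0.59 FPKM.

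**Figure D4:**
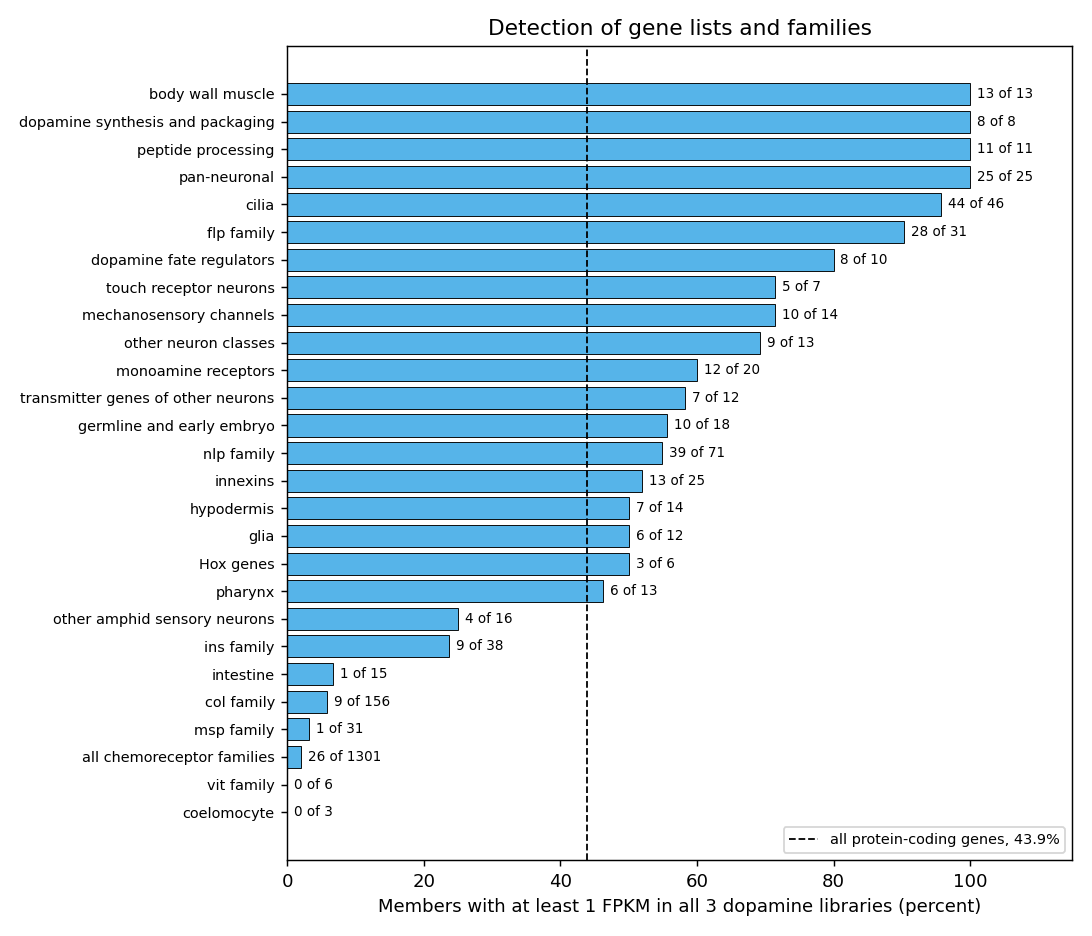
Bars give the percent of measured members of each gene list or family with at least 1 FPKM in all 3 dopamine libraries, with the counts beside them and a dashed line at 43.9%, the share over all nuclear protein-coding genes. The pan-neuronal, peptide processing, dopamine synthesis, cilia and flp groups reach 90.3 to 100%, as does the body wall muscle list, while chemoreceptors, collagens and sperm proteins lie under 6%.

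Chemoreceptor genes formed the largest group that was mostly missing. Of 1301 members 26 were detected and 7 reached a mean of 10 FPKM, while 212 (16.3%) were at 0 reads in all 3 libraries. The share detected was 2%, beside 43.9% of all protein-coding genes. The highest were srx-45 at 19.99, 14.67 and 19.25 FPKM in dopamine 1, 2 and 3, srt-42 at 25.5, 17.5 and 5.47 FPKM, and srz-85 at 13.97, 14.61 and 18.51 FPKM. At the other end, the diacetyl receptor gene odr-10 had 0.25 FPKM in dopamine 1 and 0 in the other libraries. Of the 1089 members with any reads 823 were highest in dopamine 1, or 75.6%, beside 42.3% of all protein-coding genes with any reads. Over detected protein-coding genes alone the share was 17.1%. The clec, col and msp families, also with few detected members, stood at 71.9%, 69.7% and 50%, so a high share was not particular to chemoreceptors. The summed level of the chemoreceptor genes was 625 FPKM in dopamine 1, 314 in dopamine 2 and 305 in dopamine 3. Dopamine 1 also had the fewest protein-coding genes at 0 reads, 1538, beside 4762 in dopamine 2 and 4641 in dopamine 3, although it had the fewest protein-coding reads.

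Markers of other cell types were uneven, with shares detected below and above the 43.9% of all protein-coding genes. In the intestine list 1 of 15 genes was detected, the lyase gene spl-1 at 4.08, 6.97 and 3.30 FPKM, and the intestinal GATA factor elt-2 had 0.21, 0 and 0.05 FPKM, so the list summed to 10.3, 12.1 and 5.31 FPKM in dopamine 1, 2 and 3. None of 3 coelomocyte genes was detected. Of 16 genes of other amphid neurons 4 (25%) were detected. Of 12 glial genes 6 (50%) were detected, none above 45 FPKM in any library. Of 7 touch receptor neuron genes 5 (71.4%) were detected, with the alpha-tubulin gene mec-12 highest at 28.1, 42.0 and 42.8 FPKM. Of 13 genes of other neuron classes 9 (69.2%) were detected and 4 had a mean of at least 10 FPKM. These were flp-8 at 15.38, 33.38 and 8.87 FPKM in dopamine 1, 2 and 3, unc-86 at 13.34, 18.42 and 12.31 FPKM, flp-10 at 9.94, 17.14 and 14.58 FPKM and unc-30 at 7.74, 13.91 and 8.89 FPKM. In the germline and early embryo list 10 of 18 (55.6%) were detected. The highest was the transcription factor gene skn-1 at 138, 181 and 183 FPKM. Next was mex-3, an RNA-binding protein of early embryos, at 147, 117 and 175 FPKM. The P granule gene pgl-1 had 0.35, 0.64 and 0.69 FPKM.

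All 13 body wall muscle genes were detected, beside 43.9% of all protein-coding genes. Of the 13, 10 (76.9%) were highest in dopamine 2, beside 35.3% of the detected protein-coding genes. The myosin heavy chain gene unc-54 had 181, 182 and 332 FPKM in dopamine 1, 2 and 3, whereas the other muscle myosin gene, myo-3, had 2.88, 9.82 and 3.01 FPKM and the paramyosin gene unc-15 had 31.5, 52.4 and 24.4 FPKM. The ratio of unc-54 to dat-1 was 0.632, 0.781 and 0.683 in the 3 libraries. The ratio of myo-3 to dat-1 was 0.010, 0.0421 and 0.00619. Summed over the 13 genes the level was 332, 460 and 493 FPKM, of which unc-54 was the larger part in dopamine 1 and dopamine 3. The part of muscle RNA, or of any transgene-derived reads in the unc-54 value, was not tested.

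The spread between libraries exceeded what counting gives. The median CV over the 8621 detected genes was 26.2%, with quartiles of 16.39 and 39.45%, while counting alone gave a median of 4.19%. It was 32.97% for genes with a mean from 1 to 10 FPKM, 22.4% from 10 to 100 FPKM, 18.9% from 100 to 1000 FPKM and 20.2% for the 19 genes at 1000 FPKM or more. Dopamine 2 stood farther from dopamine 3 than dopamine 1 did: 18.94% of detected genes differed by at least 2-fold between dopamine 2 and 3, 16.98% between dopamine 1 and 2, and 12.98% between dopamine 1 and 3. Protein-coding FPKM sums were 0.892, 1.000 and 1.108 times their mean in dopamine 1, 2 and 3, so a gene of constant share shows dopamine 3 highest on the deposited scale.

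**Figure D5:**
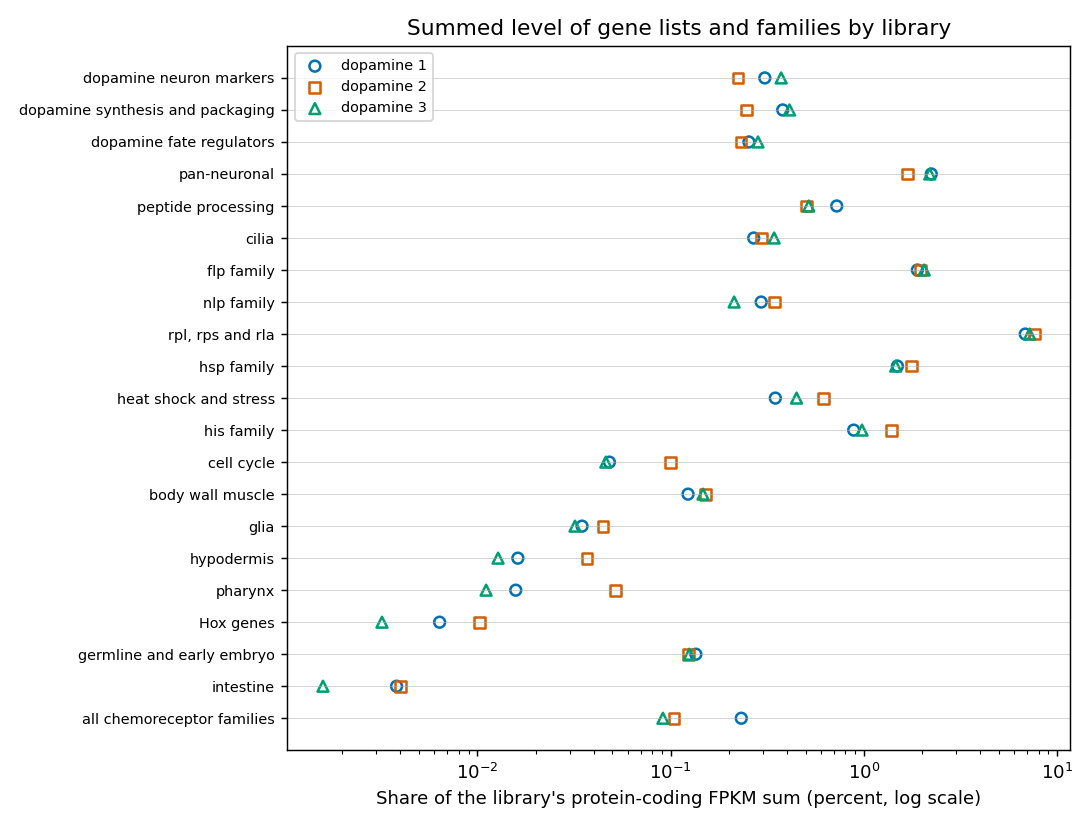
Each point is the summed FPKM of a gene list or family as a percent of the protein-coding FPKM sum of dopamine 1, dopamine 2 or dopamine 3 (log axis). Dopamine 2 is lowest for the dopamine and pan-neuronal lists and highest for the histone, cell cycle, heat shock, hypodermis, pharynx and Hox lists. By smaller margins it is also highest for the glia, hsp, nlp, ribosomal protein, body wall muscle and intestine groups. Dopamine 1 is highest for chemoreceptors and peptide processing and, by smaller margins, for the pan-neuronal and germline lists.

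Genes that stood out in a single library did so mainly in dopamine 2. Among the 4707 detected genes with a mean of at least 10 FPKM, 64 (1.36%) were at least 3-fold above both other libraries in dopamine 2, beside 7 (0.149%) in dopamine 3 and 2 (0.0425%) in dopamine 1. The 10 genes with the highest CV were all among those 64. They included pha-4, the FoxA factor that specifies the pharynx, at 10.6, 84.9 and 10.4 FPKM in dopamine 1, 2 and 3, the inducible chaperone hsp-70 at 8.63, 69.2 and 8.13 FPKM, and cdl-1, the stem-loop binding protein of histone mRNA, at 18.4, 178 and 24.7 FPKM.

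The his family gave the most genes to the 64 of the lists and families counted. Of 25 his genes that met the level 9 were among them, led by his-6 at 118, 561 and 158 FPKM, although histone genes are near-identical and reads between them are uncertain. Of the 2 cell cycle list genes that met the level neither was among the 64, and of 5 heat shock and stress genes 2 were. Both cell cycle genes were still highest in dopamine 2. These were rnr-2 at 39.47, 117.1 and 39.46 FPKM, just under 3-fold, and pcn-1 at 48.03, 93.27 and 68.95 FPKM. Outside the lists, the cyclin-dependent kinase inhibitor cki-1 had 10.1, 84.8 and 17.04 FPKM, and cyclin D, cyd-1, had 4.86, 23.4 and 4.01 FPKM. The small heat shock gene hsp-16.2 had 22.1, 295 and 79.8 FPKM. Of 10 stress genes measured 9 were highest in dopamine 2, beside 35.3% of the detected protein-coding genes. Most of the 10 are related hsp-16 genes, and hsp-16.1 and hsp-16.48 each count as 2 gene identifiers, so they are not 10 independent genes. The list summed to 939, 1868 and 1500 FPKM in dopamine 1, 2 and 3, of which hsp-1 held 873, 1387 and 1366 FPKM. These values leave out hsp-90, which was listed under its older name daf-21 and not matched. It had 2680, 2749 and 2770 FPKM, so it was not highest in dopamine 2. The cell cycle list summed to 130, 302 and 155 FPKM, the pharynx list to 42.6, 156 and 37.0 FPKM and the hypodermis list to 43.5, 111 and 42.9 FPKM. The part of cell mixture, developmental stage or heat response in these values was not tested.

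The steadiest genes were of several kinds. The 10 with the lowest CV, each 0.46 to 1.32%, included the heterochronic RNA-binding factor lin-28 at 84.5, 84.6 and 83.6 FPKM, the neurabin homolog nab-1 at 50.0, 49.7 and 50.7 FPKM, the kinase gene wnk-1 at 89.4, 88.5 and 87.6 FPKM and the elongation factor eef-1B.1 at 125, 126 and 124 FPKM. This steadiness belongs to the deposited scale, because rescaling to the same protein-coding sum raised their CVs to between 9.59 and 11.88%. At the other end of the range were genes at 0 reads in 1 library and well covered in another. The highest of these, F49F1.15, had 17.2 FPKM in dopamine 2, 0.28 in dopamine 1 and 0 in dopamine 3, and D1044.4 had 11.8 and 15.7 FPKM in dopamine 1 and 3 and 0 in dopamine 2.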

How the data were processed

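RNA was measured in 3 libraries labelled as dopamine neurons. The labels give polyA RNA as the molecule. The authors deposited FPKM values per gene and a normalized count signal, in which each library's reads are scaled by a factor of its own. STAR, HTSeq and DESeq2 stand in the submitters' processing notes with no role or version, and the authors' genome build and strand setting were not found in the sources used here. Dividing the normalized count signal by its smallest step returned whole reads (tolerance 0.02), with 1 exception in dopamine 1 and 1 in dopamine 2. The FPKM values carried the same scaling between libraries as the normalized counts (the ratio of both had a CV of at most 0.02% over 1087 genes). They therefore add gene length only, and very short genes have inflated FPKM.

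Genes were matched by identifier to Ensembl release 115 of WBcel235, which covered 46407 of 47063 genes and left 656 unmatched, and symbols came from the supplied name table. Ranks and counts used the 19623 nuclear protein-coding genes. Means, SDs, CVs and sums were computed with Python 3.11.15, pandas 2.3.3 and numpy 2.4.6, and the recovery of reads was tested on simulated data. No test was run, since the description stays within 1 group. Counting limits use 3 reads for a count of 0 and cover counting error only, because amplified reads are not independent molecules. Over genes, the reads of paired libraries differed by a chi-square of 55.9 to 160.4 for each degree of freedom, above counting noise. They were treated as 3 libraries, and this does not show that they came from separate cultures.

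Named genes are all 5 markers, the 20 most abundant non-ribosomal genes, the 10 with the highest and the 10 with the lowest CV (mean of at least 10 FPKM), the 10 highest in 1 library that are at 0 in another, and up to 4 leading members and 6 members at 0 of each list or family. A gene named beyond that rule was chosen after its values were seen or to complete its group. The libraries, markers and the 23 gene lists were chosen with earlier results of these data known. Symbols of 4 listed genes, namely daf-21, hsp-16.11, hsp-16.49 and inx-4, had no match, while daf-21 is an older name of hsp-90. The symbols hsp-16.1 and hsp-16.48 each matched more than 1 gene identifier. Alternatives changed the minimum, the scaling, the measure of level and the libraries used.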

Additional observations from a re-analysis of the deposited data

How the results depend on the processing

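The count of 8621 detected genes became 3888 with a minimum of 10 FPKM and stayed within 1.5 times under the other settings, and without any 1 library it ranged from 8837 to 9353. The 1048 genes at 0 reads became 2001 when under 0.1 FPKM in all 3 was asked, and ranged from 1234 to 3190 without 1 library, the highest without dopamine 1. Of the 100 most abundant genes, ranking by normalized counts without gene length kept 50, while leaving out 1 library kept 93 to 96. By the same counts the share of the top 100 was 17.81% and that of ribosomal protein genes 2.81%. The rank of dat-1 ranged from 90 to 147 without 1 library. The median CV was 60.77% with no minimum. Of 128 recounts of lists and families 6 moved by more than 1.5 times. Leaving out 1 library gave 3 to 5 detected Hox genes, 1 to 2 intestinal genes, 0 to 1 coelomocyte genes, 13 to 17 collagens and 30 to 43 chemoreceptors, counts that can only rise when fewer libraries must pass. Genes 3-fold above both other libraries became 7 in dopamine 1 and 4 in dopamine 3 after rescaling to equal protein-coding sums. With 2-fold they were 14, 173 and 72 in dopamine 1, 2 and 3, and with 5-fold 0, 15 and 0. Rescaling moved the mean of 4 named genes of lowest CV (lin-28, lpd-6, mak-2 and F13B12.1) by more than their SD. The list recounts, the fold settings and the rescaled means were added after the data were seen. No paired analysis was possible because the results come from no test between groups. At a gene of median length 1 FPKM stood for 31.2 reads in dopamine 1 and 53.8 to 59.6 in the other 2 libraries, which sets the counting precision near the detection minimum.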

Other observations

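Detection differed by chromosome. On chromosome III 62.8% of protein-coding genes were detected and on chromosome I 57.7%, beside 46.6% on the X, 41.9% on II, 40.8% on IV and 28.2% on V. Leaving out chemoreceptor genes raised chromosome V to 34%, still the lowest of the 6. Of the 100 most abundant genes 8 lay on the X, beside 13 to 22 on each autosome. Detected genes had longer exons, with a median of 1521 bases, than genes under 1 FPKM in every library (1030 bases) and genes at 0 reads in all 3 (788 bases). Genes with a gene-class symbol were detected in 51.3% of 10876 cases, and those known by a sequence name only in 34.8% of 8747.

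Beyond protein-coding genes, 943 of 15363 piRNA genes (6.14%) and 207 of 2070 pseudogenes (10%) had at least 1 FPKM in all 3 libraries. So did 44 of 181 lincRNA genes (24.3%) and 109 of 346 snoRNA genes (31.5%), beside 24.2% of all 47063 genes. The piRNA genes have a median length of 21 bases, so few reads make 1 FPKM. An example is 21ur-13771, which lies within ast-1 and had 781, 524 and 1232 FPKM in dopamine 1, 2 and 3. The part of ast-1 reads in this value was not tested. Glutathione transferase genes were detected in 16 of 44 cases (36.4%), beside 43.9% of all protein-coding genes. They were led by gst-5 at 243, 180 and 173 FPKM and gst-39 at 150, 80.6 and 131 FPKM. The stress-inducible gst-4 had 0.88, 0.09 and 0.10 FPKM. Cytochrome P450 genes were detected in 18 of 74 cases (24.3%), led by cyp-33C8 at 100.1, 85.8 and 121 FPKM. Mitochondrial genes took 3.34% of the reads of dopamine 1, 7.17% of those of dopamine 2 and 3.46% of those of dopamine 3.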
